A study of Mus musculus with 12 samples.

Results

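The glycolytic enzymes described here are the 10 genes *Hk2*, *Gpi1*, *Pfkm*, *Aldoa*, *Tpi1*, *Gapdh*, *Pgk1*, *Pgam2*, *Eno3* and *Pkm*, chosen by name as 1 gene for each step from glucose to pyruvate. All 10 were among the 55367 gene symbols of the deposited tables, and all 10 were among the 14427 genes tested. RNA was sequenced from single muscle fibers isolated from the extensor digitorum longus (EDL), a fast hindlimb muscle, of male mice. The 3 groups of 4 samples each were Young (fibers of 3–4-month-old mice), Aged normal and Aged abnormal (fibers of 26–28-month-old mice, separated under a fluorescence stereomicroscope by whether staining with Fluo-4, a fluorescent Ca2+ indicator, looked normal or abnormally bright). No genotype or drug treatment distinguishes the groups. How many mice and fibers went into a sample is not given in the sources used here, so the p-values measure the spread between these samples. The comparisons address whether the transcripts of the pathway that ends in pyruvate, the substrate for lactate, differ with age and between the 2 kinds of aged fiber.

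Glycolysis splits glucose in the cytosol in a preparatory phase that spends ATP and a payoff phase that returns ATP and NADH. Fast fibers rely on it for short bursts of work, and they use muscle isoforms at several steps: *Pfkm*, *Aldoa*, *Pgam2* and *Eno3*. The flux is set mainly at hexokinase, phosphofructokinase and pyruvate kinase, whereas the steps between them run near equilibrium.

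The values are TPM, a measure of transcript abundance scaled to the total of the sample and to transcript length. Each sample sums to 1000000 TPM, which leaves the number of reads unknown, and the values carry no interval for counting error. Fast fiber markers (*Acta1*, *Ckm*, *Mylpf*, *Tnnt3*, *Myh4* and *Pvalb*) summed to 129497 to 174887 TPM, and 6 slow fiber markers to 0.174 to 4.35 TPM, so the defining markers of fast fibers were present in all 12 samples. Mitochondrially-encoded genes took 7.35% to 8.01% of the TPM in Young, 8.75% to 10.9% in Aged normal and 4.75% to 6.92% in Aged abnormal samples. The 5 immune markers summed to 0.718 to 1.48 TPM in Young, 5.07 to 14.7 in Aged normal and 7.22 to 11.4 in Aged abnormal samples, and none of the 5 was at 0 in every sample. The 5 erythroid markers summed to 33.1 to 121, 119 to 482 and 44.4 to 236 TPM, and the 5 endothelial markers to 17.95 to 34.3, 38.9 to 118 and 9.81 to 70.5 TPM. Their part in the results below was not tested.

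The 10 enzymes together took 5.46% to 6.22% of all TPM in every sample. Their summed level was 60888, 61898, 60728 and 59514 TPM in the Young samples, 60202, 54578, 58300.5 and 62238 TPM in the Aged normal samples and 58560.2, 54963, 56657 and 60161 TPM in the Aged abnormal samples. The 3 groups overlapped. The level of single enzymes spanned about 3 orders of magnitude, and the order was nearly the same in the 3 groups. *Aldoa* came first with 55.2% to 61.4% of the enzymes' sum, followed by *Eno3* and *Pgam2*, then *Tpi1*, *Pkm*, *Gapdh*, *Pfkm*, *Gpi1*, *Pgk1* and last *Hk2*. In Aged abnormal samples *Pkm* and *Tpi1* changed places by their means. Neighbours in this order did not overlap in any sample of a group, except *Gapdh* and *Pfkm* in all 3 groups and *Tpi1* and *Pkm* in both aged groups. Among all gene symbols, *Aldoa* ranked 3 or 4 in every sample and *Hk2* between 1594 and 2438.

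**Figure D1:**
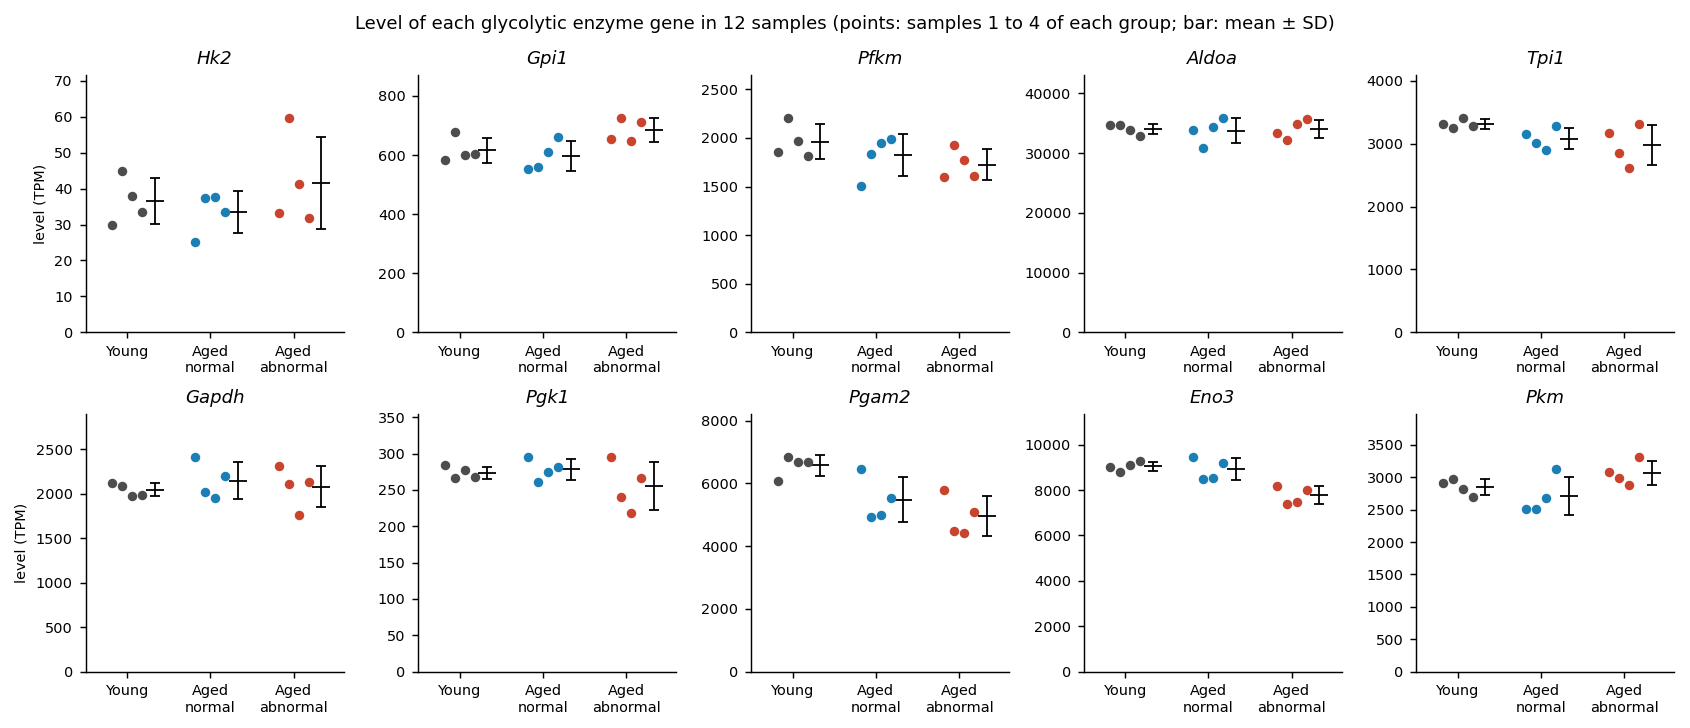
Level of the 10 enzymes in TPM (vertical axes, each starting at 0) in the 4 samples of the Young, Aged normal and Aged abnormal groups. Points are samples in the order of their numbers and bars are the mean ± SD. *Pgam2* and *Eno3* are lower in all 4 Aged abnormal samples than in all 4 Young samples, and *Eno3* also than in all 4 Aged normal samples, whereas the groups overlap for *Aldoa*.

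In the preparatory phase no enzyme passed the test in any comparison. *Hk2*, hexokinase 2, traps glucose as glucose 6-phosphate and lies at chr6:82699740-82751469 (minus strand, GRCm39). It was measured at 30, 44.8, 38.0 and 33.4 TPM in Young, 25.3, 37.5, 37.8 and 33.4 TPM in Aged normal and 33.2, 59.8, 41.2 and 31.9 TPM in Aged abnormal samples. Aged abnormal sample 2 stood highest and the groups overlapped, with means of 36.5 ± 6.41, 33.5 ± 5.84 and 41.5 ± 12.8 TPM (SD, n = 4). *Gpi1*, glucose-6-phosphate isomerase (chr7:33900755-33929780, minus strand), was at 583, 678, 600.1 and 603 TPM in Young, 553, 559.5, 611 and 661 TPM in Aged normal and 654, 727, 648 and 712 TPM in Aged abnormal samples. Only Young sample 2 and Aged normal sample 4 reached into the range of the Aged abnormal samples. The difference between the aged groups did not pass the adjusted threshold (limma, log2 difference 0.20, SE 0.08, adjusted p = 0.11, unadjusted p = 0.019).

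*Pfkm*, the muscle phosphofructokinase that commits the sugar to glycolysis (chr15:97990451-98031417, plus strand), had values of 1857, 2211, 1968 and 1812 TPM in Young, 1510.5, 1836, 1947 and 1987 TPM in Aged normal and 1598, 1928, 1774 and 1609 TPM in Aged abnormal samples. The groups overlapped, although the means stood in the order Young, Aged normal, Aged abnormal (1962 ± 178, 1820.1 ± 216 and 1727 ± 156 TPM, SD, n = 4). *Aldoa*, aldolase A, cuts fructose 1,6-bisphosphate into 2 triose phosphates and lies at chr7:126393822-126399923 (minus strand). Its samples read 34693, 34733, 33842 and 32857 TPM in Young, 33804, 30925, 34384 and 35942 TPM in Aged normal and 33416, 32214, 34805 and 35685 TPM in Aged abnormal fibers. The means differed by less than the spread between samples, and the 95% interval of the log2 difference was -0.23 to 0.23 for Aged abnormal against Young and -0.22 to 0.24 against Aged normal. *Tpi1*, triosephosphate isomerase (chr6:124787549-124791273, minus strand), ranged from 3245 to 3416 TPM in Young, 2894 to 3274 TPM in Aged normal and 2606 to 3317 TPM in Aged abnormal samples, again with overlap.

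In the payoff phase 1 enzyme passed the test. *Pgam2*, the muscle phosphoglycerate mutase, moves the phosphate of 3-phosphoglycerate to the neighbouring carbon. It lies at chr11:5751636-5753760 on the minus strand and has 3 exons. Its level was 6089.6, 6848, 6690.0 and 6680.2 TPM in Young, 6469, 4942, 4996 and 5538 TPM in Aged normal and 5805, 4472, 4435 and 5105 TPM in Aged abnormal samples. All 4 Aged abnormal samples lay below all 4 Young samples, and Aged normal sample 1 lay among the Young values while the other 3 Aged normal samples did not. *Pgam2* fell from 6577 ± 334 TPM in Young to 4954 ± 645 TPM in Aged abnormal fibers (SD, n = 4) (limma, log2 difference -0.42, SE 0.11, adjusted p = 0.034, 95% interval -0.65 to -0.18). With TMM-type scaling the log2 difference was -0.59 and the adjusted p was 0.054, and with no filter on low values the adjusted p was 0.050, which misses the threshold. The call was also lost when any 1 Young sample or Aged abnormal sample 2, 3 or 4 was left out (log2 difference -0.50 to -0.37 over all samples left out, adjusted p 0.057 to 0.10 where the call was lost). Between Aged normal and Young the difference was -0.27 (SE 0.11, adjusted p = 0.31), and between the aged groups -0.15 (SE 0.11, adjusted p = 0.44). Lower RNA in every fiber and fewer fibers with a high level cannot be told apart in such samples. The gene *Dbnl*, on the opposite strand, spans all 870 bases of the *Pgam2* transcript, but whether its exons cover them was not examined. The library kit keeps no strand, and *Dbnl* was at most 5.50 TPM in any sample.

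*Eno3*, the muscle enolase that makes phosphoenolpyruvate, lies at chr11:70546593-70553340 on the plus strand. It was measured at 8995, 8803, 9098 and 9299 TPM in Young, 9464, 8486, 8534 and 9197 TPM in Aged normal and 8195, 7367, 7488 and 7991 TPM in Aged abnormal samples. The Young and Aged normal samples overlapped, and all 4 Aged abnormal samples lay below both. The means were 9049 ± 206, 8920.2 ± 486 and 7760.3 ± 396 TPM (SD, n = 4). The differences did not pass the adjusted threshold, against Aged normal (limma, log2 difference -0.20, SE 0.08, adjusted p = 0.13) or against Young (limma, log2 difference -0.22, SE 0.08, adjusted p = 0.11). The aged samples were also treated as pairs by their number, a pairing inferred from these same data and not given by the labels. The same log2 difference between the aged groups then had an SE of 0.053 and an adjusted p of 0.027 (limma), which passes. That paired fit called 2281 of 14427 genes. With a filter of 5 TPM both differences passed, with adjusted p of 0.037 and 0.028.

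*Pkm*, the pyruvate kinase that yields pyruvate and ATP, lies at chr9:59563364-59586663 on the plus strand. Its 2 splice forms share 1 row in the tables and were not separated. The samples read 2918, 2977, 2822 and 2691 TPM in Young, 2517, 2502, 2674 and 3129 TPM in Aged normal and 3086, 2990.2, 2878 and 3315 TPM in Aged abnormal fibers. The Aged abnormal samples were higher than 3 of the 4 Aged normal samples, and Aged normal sample 4 was second highest of the 8. The difference between the aged groups missed the adjusted threshold (limma, log2 difference 0.18, SE 0.08, adjusted p = 0.19, unadjusted p = 0.046).

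*Gapdh*, glyceraldehyde-3-phosphate dehydrogenase, which makes the NADH of glycolysis, and *Pgk1*, phosphoglycerate kinase, which makes its first ATP, have processed copies elsewhere in the genome. *Gapdh* lies at chr6:125135289-125143518 (minus strand) and read 2122, 2091, 1977 and 1988 TPM in Young, 2415, 2019, 1947 and 2195 TPM in Aged normal and 2311, 2108, 1764 and 2129 TPM in Aged abnormal samples. Of its 85 near-identical copies in the annotation (at least 95% identity), 78 had a row in the tables, and in each sample these rows held 85.8% to 88.1% of the TPM of *Gapdh* and its copies. The 60 bases below, coding bases 553 to 612 of *Gapdh* in exon 5 (chr6:125139579-125139638, minus strand), are shown because they cover the single mismatch of *Gm2606* and no difference in *Gm10359* (chr5:106010957-106011016, minus strand) or *Gm12671* (chr4:91740295-91740354, minus strand). The capital marks base 583, counted from the A of the start codon, where *Gm2606* (chr15:12575527-12575586, plus strand) carries C583T. The copies lie in exons of genes annotated as processed pseudogenes.
Gapdh: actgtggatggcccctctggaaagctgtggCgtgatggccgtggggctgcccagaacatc
Gm10359: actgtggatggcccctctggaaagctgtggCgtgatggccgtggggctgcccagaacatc
Gm12671: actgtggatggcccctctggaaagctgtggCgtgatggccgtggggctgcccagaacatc
Gm2606: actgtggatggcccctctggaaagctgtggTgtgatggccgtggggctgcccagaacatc
Among the 25 copies aligned over at least 990 bases without gaps, those with the fewest mismatches had the highest median levels. The 2 of them with no mismatch to *Gapdh*, *Gm10359* and *Gm12671*, had means of 3445 and 3431 TPM over the 12 samples, above the 2089 TPM listed for *Gapdh*. The 7 copies with 1 mismatch had a median of 399 TPM, the 6 with 3 to 5 mismatches 46.4 TPM, the 3 with 7 to 10 mismatches 6.16 TPM and the 7 with more than 10 mismatches 3.06 TPM. Of the copies with gaps, *Gm7336* (1 mismatch and 2 gap bases) had the highest mean of all copies in each group, 3394, 3679 and 3397 TPM in Young, Aged normal and Aged abnormal fibers. *Gapdh-ps16* (6 mismatches and 2 gap bases) was at 378 to 501 TPM, above the gapless copies with 3 to 10 mismatches. Reads that fit both a copy and *Gapdh* cannot be assigned from these tables, so the *Gapdh* row is uncertain as a level.

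**Figure D2:**
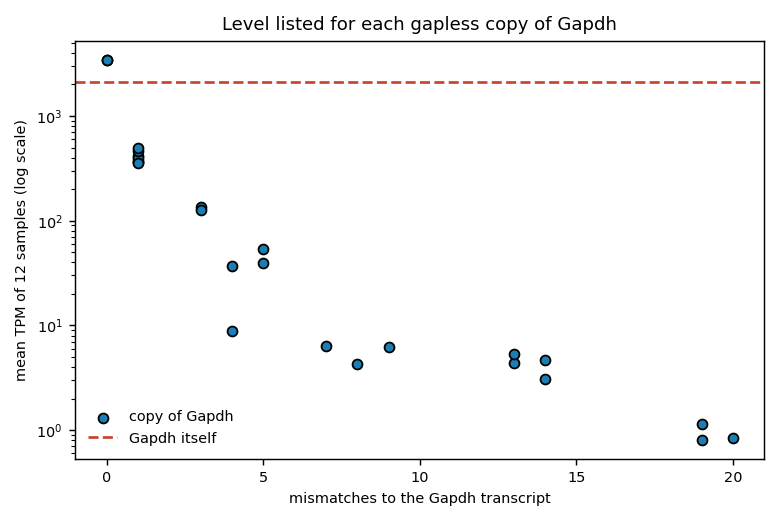
Mean level over 12 samples (TPM, log axis) of the 25 gapless copies of *Gapdh* against their number of mismatches to the *Gapdh* transcript, with the level listed for *Gapdh* as a dashed line. The 2 copies with 0 mismatches lie above the *Gapdh* line, those with 1 mismatch between 354 and 492 TPM, and those with more than 10 mismatches at or below 5.31 TPM.

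With the copies added, *Gapdh* read 15521, 15911, 16378 and 15721 TPM in Young, 17781, 16030.4, 15887 and 18502 TPM in Aged normal and 16779.7, 14852, 14131 and 17829.7 TPM in Aged abnormal samples. It then ranked second of the 10 enzymes, after *Aldoa*, in all 3 groups, and the groups still overlapped. The log2 difference between the aged groups was -0.10 with copies and -0.05 without (SE 0.10 and 0.09), and neither passed the test (adjusted p = 0.56 and 0.79). Against Young the Aged abnormal difference was 0.02 without and -0.0045 with the copies, both close to 0. With all copies added, the 10 enzymes together took 6.80% to 7.89% of all TPM, and *Aldoa* made up 44.5% to 50.2% of their sum.

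*Pgk1* (chrX:105230706-105247305 on chromosome X, plus strand) read 284, 266, 277 and 268 TPM in Young, 296, 260.3, 275 and 282 TPM in Aged normal and 295, 240.0, 219 and 267 TPM in Aged abnormal samples. Its coding bases 2 to 61 in exon 1 (chrX:105230858-105230917) are printed because 2 processed pseudogenes, *Pgk1-rs7* (chr12:10950181-10950240, minus strand) and *Gm5537* (chr3:58011608-58011667, minus strand), match them base for base. From coding base 2 on, *Pgk1-rs7* is identical over 1253 bases, to the end of the coding sequence, and *Gm5537* over 1251.
Pgk1: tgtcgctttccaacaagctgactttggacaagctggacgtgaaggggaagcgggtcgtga
Pgk1-rs7: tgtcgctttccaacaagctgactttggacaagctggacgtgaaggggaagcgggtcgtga
Gm5537: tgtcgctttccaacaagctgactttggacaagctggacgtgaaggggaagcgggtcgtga
The 4 copies of *Pgk1* held 48.9% to 52.5% of the sum of gene and copies. With them *Pgk1* was at 558 ± 17.97, 569.6 ± 28.6 and 511 ± 64.2 TPM in Young, Aged normal and Aged abnormal fibers (SD, n = 4), and its groups overlapped with and without the copies. For *Tpi1*, *Gpi1* and *Pkm* the copies held at most 0.987% of the sum, and for *Hk2*, *Pfkm*, *Pgam2* and *Eno3* the same search found none. For *Aldoa* it found *Gm57854*, a protein-coding gene annotated over *Aldoa* on the same strand. Its span from start to end covers all 1511 exonic bases of *Aldoa*, and the search aligned 1303 bases of the 2 transcripts without a mismatch. No value for it was used here, so reads of the bases shared by the 2 genes cannot be told apart.

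Over the 3 comparisons the test called 1 enzyme. Between Aged abnormal and Aged normal, 0 of 10 passed an adjusted p of 0.05 in limma, where 9.35% of all genes tested passed, and 3 of 10 had an unadjusted p under 0.05 (*Gpi1*, *Pkm* and *Eno3*), where 25.6% of all genes did. Between Aged abnormal and Young, 1 of 10 passed (*Pgam2*, lower), beside 8.50% of all genes in either direction and 2.41% called lower, and 2 had an unadjusted p under 0.05, beside 23.0% of all genes. Between Aged normal and Young, 0 of 10 passed, beside 1.15% of all genes, and 1 (*Pgam2*) had an unadjusted p under 0.05, beside 12.9%. Samples did not overlap between the groups for 1 of 10 (*Eno3*), 2 of 10 (*Pgam2* and *Eno3*) and 0 of 10 enzymes, in the same order, beside 14.0%, 16.2% and 7.99% of all genes. The 3 comparisons share samples and are not independent. In the fit limited to the 2 groups compared, in the fit with the *Myh4* share of the adult myosin heavy chains as a covariate and with a pseudocount of 0.1, the counts of 0, 1 and 0 enzymes were kept. They changed with no filter, with a filter of 5 TPM, with the aged samples paired, and when certain single samples were left out. With TMM-type factors the 1 enzyme was *Pfkm* in place of *Pgam2*.

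The scale matters for the direction. The median log2 difference of the 14427 genes tested was 0.10 between Aged abnormal and Aged normal, 0.07 between Aged abnormal and Young and -0.02 between Aged normal and Young, and that of the 5994 genes with a mean of at least 5 TPM was 0.20, 0.12 and -0.07. The median of the 10 enzymes was -0.05, -0.06 and -0.06, thus 0.25 and 0.17 below the well-expressed genes in the first pair of comparisons and 0.01 above them in the third. With TMM-type factors, which set the middle of all genes to no change, the median of the 10 was -0.28 between the aged groups, -0.23 between Aged abnormal and Young and -0.01 between Aged normal and Young. On that scale 9 of 10 enzymes had a negative difference between the aged groups, with *Hk2* the exception, and 10 of 10 between Aged abnormal and Young. In TPM it was 6 of 10 in both. On that scale *Pfkm* passed between Aged abnormal and Young (log2 difference -0.36, SE 0.09, adjusted p = 0.024) and 0 of 10 passed in the other comparisons. The split of calls over all genes also turned, from 1062 higher and 287 lower in TPM to 310 higher and 545 lower between the aged groups, and from 879 and 347 to 450 and 692 between Aged abnormal and Young.

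**Figure D3:**
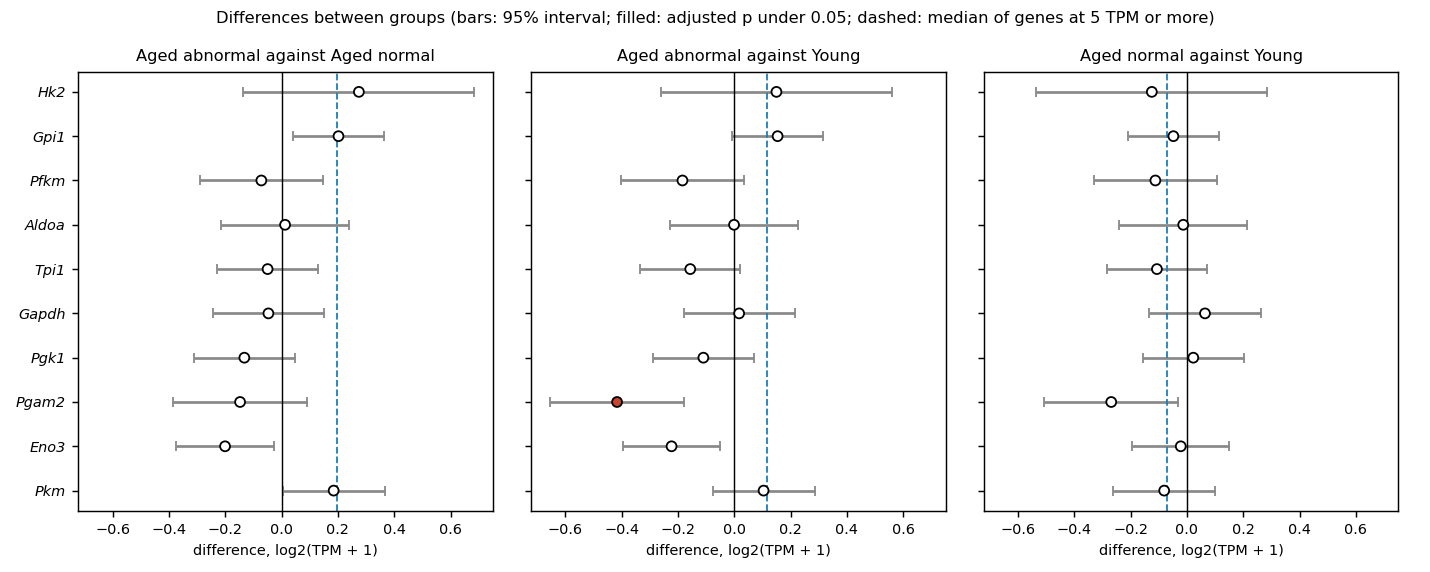
Difference of each enzyme on the log2(TPM + 1) scale (horizontal axis) in the 3 comparisons, with the 95% interval from limma as bars, and the median of the genes with at least 5 TPM as a dashed line. The filled point, *Pgam2* in Aged abnormal against Young (-0.42), is the one that passed an adjusted p of 0.05, and 8 of 10 points lie left of the dashed line in the comparison of the aged groups.

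The share of each enzyme in the sum of the 10 does not depend on the scaling of a sample. The shares of a sample add to a fixed total, so a lower share of 1 enzyme raises those of the others. These shares are given as a description, with no test and no rate of separation over other genes. *Eno3* made up 14.8, 14.2, 14.98 and 15.6% in Young, 15.7, 15.5, 14.6 and 14.8% in Aged normal and 14.0, 13.4, 13.2 and 13.3% in Aged abnormal samples. All 4 Aged abnormal shares were below the other 8. *Pkm* made up 4.79, 4.81, 4.65 and 4.52% in Young, 4.18, 4.59, 4.59 and 5.03% in Aged normal and 5.27, 5.44, 5.08 and 5.51% in Aged abnormal samples, and here all 4 Aged abnormal shares were above the other 8. *Gpi1* behaved alike, with 1.12, 1.32, 1.14 and 1.18% in Aged abnormal samples against at most 1.10% in the others. *Pgam2* made up 10.0, 11.1, 11.0 and 11.2% in Young, 10.7, 9.05, 8.57 and 8.90% in Aged normal and 9.91, 8.14, 7.83 and 8.49% in Aged abnormal samples. Its Aged abnormal and Young shares did not overlap, whereas the shares of the aged groups did. *Aldoa* made up 57.1% to 61.4% in Aged abnormal and 55.2% to 57.0% in Young samples, without overlap. In TPM, however, the groups overlapped for *Aldoa*, *Gpi1* and *Pkm*. The mean of *Aldoa* was 34029.8 TPM in Aged abnormal and 34031.2 TPM in Young samples. With the copies counted, the separations of *Eno3*, *Pkm*, *Gpi1* and *Pgam2* were kept. The narrowest was that of *Gpi1*, whose lowest Aged abnormal and highest Young share were both 0.894% after rounding. The separation of *Aldoa* was lost. A separation of *Gapdh* appeared only with the copies, at 21.9% to 23.5% in Aged normal and 20.8% to 21.7% in Young samples.

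**Figure D4:**
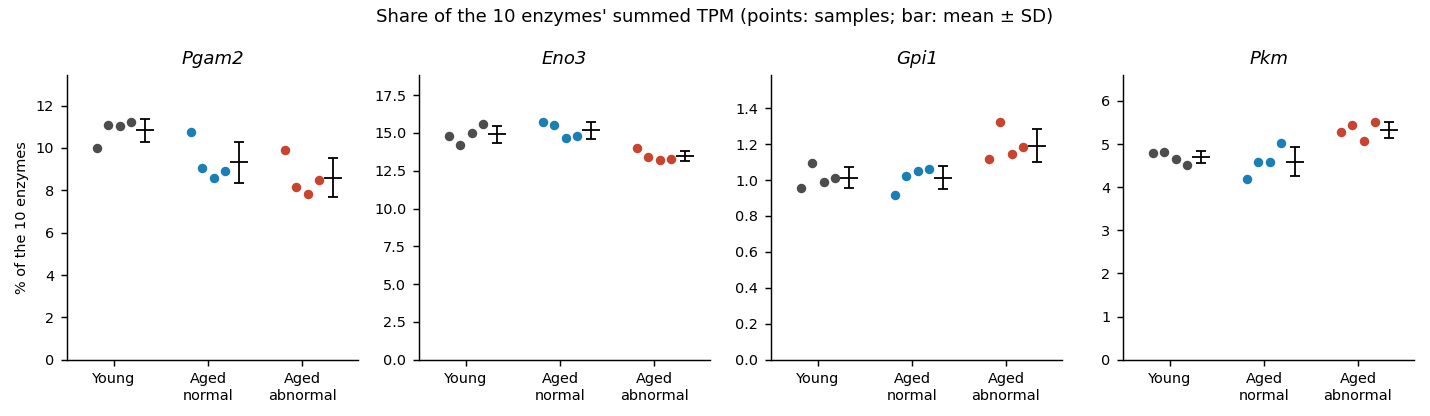
Share of *Pgam2*, *Eno3*, *Gpi1* and *Pkm* in the summed TPM of the 10 enzymes (percent, axes from 0) in the 4 samples of each group, with the mean ± SD as bars. The share of *Eno3* is lower and those of *Gpi1* and *Pkm* are higher in the 4 Aged abnormal samples than in the other 8. The shares of a sample add to a fixed total.

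Across the 12 samples the enzymes did not move as 1 block. On the log2(TPM + 1) scale the highest Pearson correlations between members were those of *Gpi1* with *Pkm* (0.84) and of *Pgam2* with *Eno3* (0.83), and the lowest that of *Hk2* with *Pgk1* (-0.68). After subtraction of the group means the same pairs had 0.73, 0.88 and -0.62. These values are descriptions over 12 samples that share groups and libraries, so no p is given. The genes outside the pathway whose level followed the mean of the 10 enzymes best over the 12 samples were *Naa60* (Pearson r 0.91), *Tspan3* (0.85), *Ppcs* (0.84), *Isoc2b* (0.83) and *Abcb8* (0.82), out of 5574 candidates. That mean was nearly flat, from 10.701 in Aged abnormal sample 3 to 10.926 in Young sample 2 on the log2 scale. These genes are the extremes of a search, and shared regulation with the enzymes was not tested.

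The promoters of *Pgam2* and *Eno3*, the members whose Aged abnormal samples all lay below the Young samples, are shown over the 250 bases before the transcription start in RefSeq (GRCm38, chr11:5803797-5804046, minus strand, and chr11:70656926-70657175, plus strand). Capitals mark CANNTG, the E-box letters bound by myogenic factors among others, on either strand.
Pgam2: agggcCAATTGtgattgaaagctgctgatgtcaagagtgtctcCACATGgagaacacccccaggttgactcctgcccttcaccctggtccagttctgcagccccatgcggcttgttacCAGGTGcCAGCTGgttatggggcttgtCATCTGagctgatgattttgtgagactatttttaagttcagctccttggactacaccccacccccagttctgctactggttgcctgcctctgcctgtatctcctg
Eno3: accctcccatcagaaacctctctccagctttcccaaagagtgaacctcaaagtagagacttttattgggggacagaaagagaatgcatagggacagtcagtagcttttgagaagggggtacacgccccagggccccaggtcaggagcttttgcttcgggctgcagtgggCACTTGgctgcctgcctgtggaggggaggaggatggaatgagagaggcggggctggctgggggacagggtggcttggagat
The *Pgam2* window holds 5 CANNTG matches and that of *Eno3* 1. At least 1 match occurs in 12 of the 16 listed promoters of the 10 enzymes and in 66.2% of 32851 promoters of the same length that were searched. ACGTG, the core bound by hypoxia-inducible factors, occurs on either strand in 7 of the 16 enzyme promoters, those of *Hk2*, *Pfkm*, *Aldoa*, *Pgk1* and *Pkm*, and in 16.6% of all. It has no match in the windows of *Pgam2* and *Eno3*. Some matches of the 2 motifs can overlap. Some enzymes have more than 1 window, and some of these windows overlap. The overlapping *Aldoa* windows hold the same ACGTG match and the same CANNTG match, each counted in every window that holds it. The matches are descriptions of letters in these windows.

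At the steps with several isozymes, the muscle form dominated in every sample. The lowest share in any sample was 96.4% for *Hk2* of *Hk1* and *Hk2*, 99.72% for *Pfkm* of the 3 phosphofructokinases, 99.78% for *Pgam2* of *Pgam1* and *Pgam2*, and 99.995% for *Aldoa* of *Aldoa* and *Aldoc*. *Eno3* made up 98.3% ± 0.052 of the 3 enolases in Young, 98.8% ± 0.16 in Aged normal and 98.2% ± 0.24 in Aged abnormal samples (SD, n = 4). Its share was higher in all 4 Aged normal samples than in the other 8, which gave the smallest p the exact two-sided permutation test allows for 4 against 4 samples (p = 0.0286 against each group), and an adjusted p of 0.21 over the 15 shares and comparisons tested. None of the 15 passed the adjusted threshold, which this smallest p cannot reach over 15 tests unless most of them are at it. The test therefore cannot decide whether the isozyme shares differ. *Pgam1* was at most 12.5 TPM and is uncertain as a level, since its 1 near-identical copy held 31.4% to 51.0% of the sum of both.

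The other isozymes were few. Of 16 genes on that list 9 were tested and 3 reached a mean of 5 TPM in a group. *Eno1*, the enolase of most tissues, was at 152, 153, 164 and 168 TPM in Young, 97.9, 90.1, 107 and 127 TPM in Aged normal and 154, 142, 117 and 174 TPM in Aged abnormal samples. It fell between Young and Aged normal without overlap (limma, log2 difference -0.60, SE 0.12, adjusted p = 0.029) and was higher in Aged abnormal than in Aged normal (log2 difference 0.47, SE 0.12, adjusted p = 0.026), although Aged abnormal sample 3 lay below Aged normal sample 4. The first call was lost with TMM-type factors (adjusted p = 0.054) and the second too (adjusted p = 0.36). *Eno1b* (7.86 ± 0.75, 5.85 ± 0.749 and 7.47 ± 1.03 TPM, SD, n = 4) and *Pgam1* (9.63 ± 2.16, 9.3 ± 2.08 and 8.96 ± 0.894 TPM) did not pass. *Eno1b* differs from *Eno1* by 9 mismatches over 1736 bases, so its level is uncertain too. *Eno1* was the 1 call on this list between the aged groups, beside 7.36% of all genes called higher, and between Aged normal and Young, beside 0.589% called lower.

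More calls came from the regulators and side branches, a list of 17 genes of which 16 were tested and 14 reached 5 TPM. Between Aged abnormal and Aged normal 5 of 16 were called higher and 0 lower, beside 7.36% and 1.99% of all genes. Between Aged abnormal and Young 2 were called higher, beside 6.09%, and between Aged normal and Young 1 lower, beside 0.589%. Between the aged groups the list's median log2 difference was 0.08, beside 0.10 over all genes. *Pfkfb3* and *Pfkfb4* encode enzymes that make and remove fructose 2,6-bisphosphate, the main activator of phosphofructokinase. *Pfkfb3* was at 104, 77.2, 76.9 and 72.8 TPM in Young, 25.2, 49.9, 64.6 and 44.3 TPM in Aged normal and 73.5, 114, 118 and 87.3 TPM in Aged abnormal samples. It rose between the aged groups without overlap (limma, log2 difference 1.13, SE 0.24, adjusted p = 0.011), the largest difference on the list that passed, and also passed under all the alternatives run (adjusted p 0.00043 to 0.046). Against Young the Aged abnormal values overlapped (log2 difference 0.23), and Aged normal was lower without passing (log2 difference -0.89, SE 0.24, adjusted p = 0.092).

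*Pfkfb4* read 19.4, 19.2, 23.1 and 17.8 TPM in Young, 14.9, 17.9, 23.7 and 23.3 TPM in Aged normal and 31.4, 28.7, 25.6 and 30.8 TPM in Aged abnormal samples. All 4 Aged abnormal samples lay above the other 8, and both differences passed (log2 difference 0.54, SE 0.14, adjusted p = 0.026 against Aged normal and log2 difference 0.53, SE 0.14, adjusted p = 0.031 against Young, limma). With TMM-type factors neither did (adjusted p = 0.14 and 0.076). *Adpgk*, an ADP-dependent glucokinase, was likewise highest in all 4 Aged abnormal samples, at a low level of 3.78 ± 0.822, 3.31 ± 0.919 and 6.69 ± 0.824 TPM (SD, n = 4), and passed in both (log2 difference 0.86, SE 0.18, adjusted p = 0.013 and log2 difference 0.70, SE 0.18, adjusted p = 0.032, limma). With TMM-type factors the second missed the threshold (adjusted p = 0.052).

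*Gpd2*, the mitochondrial glycerol 3-phosphate dehydrogenase that carries cytosolic reducing equivalents into mitochondria, had 80.4, 82.2, 84.0 and 75.8 TPM in Young, 44.1, 64.6, 70 and 66.3 TPM in Aged normal and 83.2, 100.2, 86.9 and 80.3 TPM in Aged abnormal samples. The Aged normal samples were lowest, and the rise between the aged groups passed (limma, log2 difference 0.53, SE 0.12, adjusted p = 0.018). *Pgm1*, phosphoglucomutase, which links glycogen to glucose 6-phosphate, read 823, 939.7, 899 and 783 TPM in Young, 643, 598, 647 and 739.7 TPM in Aged normal and 808, 793, 756 and 815 TPM in Aged abnormal samples. It fell between Young and Aged normal (limma, log2 difference -0.39, SE 0.08, adjusted p = 0.03) and was higher in Aged abnormal than in Aged normal samples (log2 difference 0.27, SE 0.08, adjusted p = 0.041), a call lost with TMM-type factors (log2 difference 0.05, adjusted p = 0.85). The call of *Pgm1* between Aged normal and Young was lost with TMM-type factors as well (log2 difference -0.34, adjusted p = 0.099), with the *Myh4* share as a covariate (adjusted p = 0.089) and in the fit of only the groups compared (adjusted p = 0.056). The call of *Gpd2* was lost in the fit of only the groups compared (adjusted p = 0.054), in the paired fit that also held the *Myh4* share (adjusted p = 0.13) and without Aged abnormal sample 2 (adjusted p = 0.064). With the *Myh4* share as a covariate *Adpgk* missed the threshold between the aged groups (adjusted p = 0.080) and against Young (adjusted p = 0.063). Over all alternatives run, the adjusted p between the aged groups ranged from 0.004 to 0.36 for *Eno1*, 0.012 to 0.19 for *Pfkfb4*, 0.0046 to 0.34 for *Adpgk*, 0.0045 to 0.13 for *Gpd2* and 0.019 to 0.85 for *Pgm1* (limma). Against Young it ranged from 0.01 to 0.098 for *Pfkfb4* and 0.015 to 0.10 for *Adpgk* in Aged abnormal fibers, and from 0.011 to 0.092 for *Eno1* and 0.012 to 0.12 for *Pgm1* in Aged normal fibers. Leaving out 1 sample ended at least 1 call of each of these 5 genes.

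**Figure D5:**
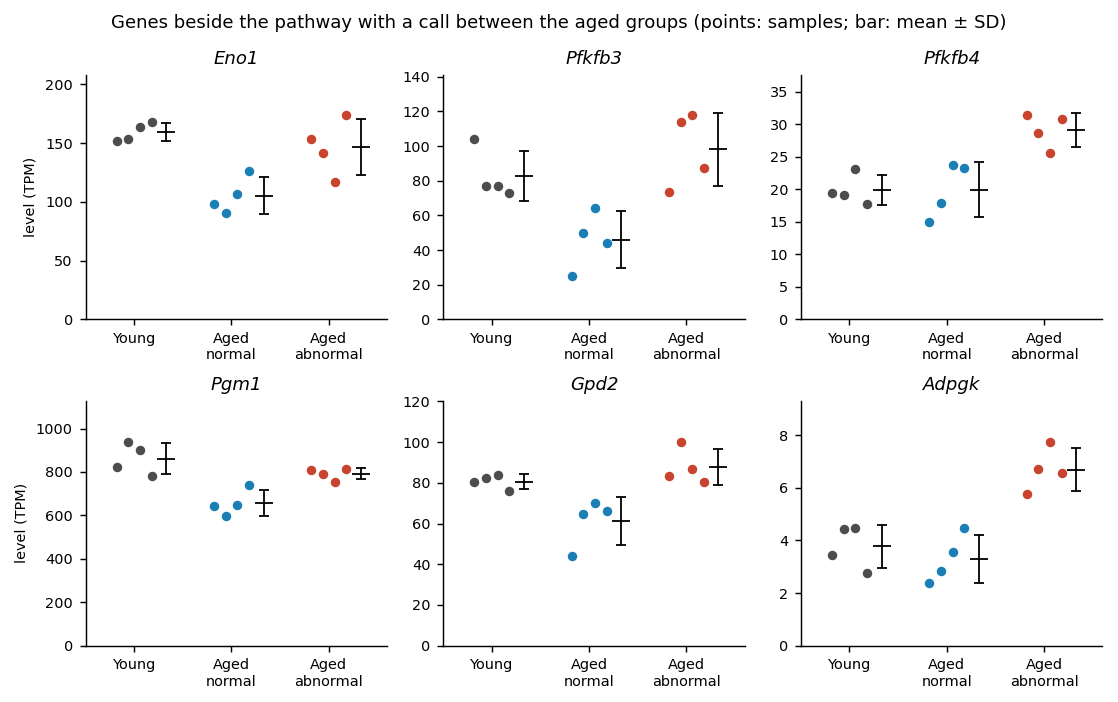
Level in TPM (vertical axes from 0) of *Eno1*, *Pfkfb3*, *Pfkfb4*, *Pgm1*, *Gpd2* and *Adpgk* in the 4 samples of each group, with the mean ± SD as bars. *Eno1*, *Pfkfb3*, *Pgm1* and *Gpd2* are lowest in Aged normal fibers by their means, whereas *Pfkfb4* and *Adpgk* are highest in all 4 Aged abnormal samples.

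The remaining side-branch genes did not pass between any groups. *Bpgm*, the 2,3-bisphosphoglycerate mutase, and *Gpd1*, the cytosolic glycerol 3-phosphate dehydrogenase, were higher in all 4 Aged abnormal than in all 4 Aged normal samples (88.3 to 99.4 against 77.1 to 86.8 TPM, and 285 to 349 against 242 to 273 TPM), with adjusted p of 0.066 and 0.079 in limma. *Ldha*, which turns pyruvate into lactate, had 4989 ± 86.8 TPM in Young, 4396 ± 297 TPM in Aged normal and 4235 ± 329 TPM in Aged abnormal samples (SD, n = 4). Both aged groups lay below all Young samples, without passing (log2 difference -0.18 and -0.24, adjusted p = 0.34 and 0.082). *Ldhb*, the heart-type subunit, ranged from 23.1 to 30.2 TPM in Young, 7.12 to 57.7 TPM in Aged normal and 4.35 to 13.2 TPM in Aged abnormal samples, the last below all Young samples without passing (log2 difference -1.51, SE 0.48, adjusted p = 0.072, limma). *Fbp2*, the muscle fructose bisphosphatase, had 60.5 ± 9.77, 84.2 ± 16.3 and 77.1 ± 13.2 TPM in Young, Aged normal and Aged abnormal samples (SD, n = 4). In the same order the means were 19.8 ± 3.22, 19.5 ± 2.25 and 15.4 ± 1.86 TPM for *Pfkfb1*, 68.4 ± 3.93, 65.8 ± 6.85 and 62.4 ± 7.67 TPM for *Tigar*, which removes fructose 2,6-bisphosphate, 6.1 ± 1.04, 5.87 ± 1.75 and 7.38 ± 0.773 TPM for *Gpd1l*, and 54.2 ± 1.66, 54.5 ± 3.1 and 50.6 ± 2.34 TPM for *Pgp*. All 5 overlapped between all groups.

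*Myh4*, the myosin heavy chain of the fastest fibers, moved with the split of the aged fibers, at 8311 to 10381 TPM in Young, 6254 to 9813 TPM in Aged normal and 10770.0 to 15574 TPM in Aged abnormal samples (limma, log2 difference 0.66, SE 0.16, adjusted p = 0.02 between the aged groups). Its share of *Myh1*, *Myh2*, *Myh4* and *Myh7* was 93.7% to 99.2% in Aged normal and 98.9% to 99.7% in Aged abnormal samples. With that share as a covariate the *Pgam2* difference between Aged abnormal and Young was -0.53 (SE 0.11, adjusted p = 0.013), and 0 of 10 enzymes passed between the aged groups.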

How the data were processed

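RNA of isolated EDL myofibers (12 samples, 4 per group) was made into full-length cDNA libraries with the SMART-Seq v4 kit, which keeps no strand. The authors processed the reads with DRAGEN on GRCm39 and deposited 1 table of TPM per sample. The annotation release is not given in the sources used here. Symbols on several lines were summed. Protein-coding and mitochondrially-encoded genes with a mean of at least 0.02 TPM in a group were tested on log2(TPM + 1) with limma 3.58.1 (R 4.3.3, two-sided, variance trend, 3 groups in 1 fit, Benjamini-Hochberg over 14427 genes, threshold 0.05), and the fit was tested on simulated data. Isozyme shares were compared by exact permutation. Near-identical copies were found with BLAST+ 2.17.0 (at least 95% identity over 100 bases and 50% of the copy). Coordinates and coding sequence are from GENCODE on GRCm39, promoters from RefSeq on GRCm38.

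The enzymes and lists were chosen with earlier results of these data known. The result of 1 gene on the list of other isozymes is not reported here. From the lists of other isozymes and of regulators and side branches, genes reaching 5 TPM in a group are named, and further the myosin heavy chains and the 5 genes most like the enzymes' mean. Same-numbered aged samples deviated together from their group means (correlation 0.44, 0.38, 0.43 and 0.30 over 6012 genes), beside -0.36 to 0.23 for aged samples of different number. The pairing comes from these data, since the labels do not say what a number marks. Alternatives were TMM-type factors, scaling that leaves out mitochondrially-encoded genes, a filter of 5 TPM or none, a pseudocount of 0.1, all annotated entries, only the groups compared, a replicate block, the *Myh4* share, added copies, all isozymes, and each sample left out.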

Additional observations from a re-analysis of the deposited data

Results flagged for a closer look

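Among 108 groups of 4 values tested for a sample far from the other 3 (Dixon's criterion), 7 were marked, where chance marks about 1 in 20. None of the 10 enzymes' own levels was among them. *Pfkfb1* was 18.108 TPM in Aged abnormal sample 1, above 14.2 to 14.8 TPM in the others of its group. *Pfkfb3* was 104.11 TPM in Young sample 1, above 72.8 to 77.2 TPM. *Bpgm* was 82.967 TPM in Young sample 4, below 91.5 to 92.5 TPM. *Myh2*, a myosin heavy chain of fast oxidative fibers, was 17.175 TPM in Young sample 3 (others 5.87 to 6.91), 34.57 TPM in Aged normal sample 2 (others 2.38 to 5.93) and 10.617 TPM in Aged abnormal sample 2 (others 3.74 to 4.26). The share of *Hk2* in *Hk1* and *Hk2* was 96.595% in Aged normal sample 4, below 99.1 to 99.3% in the others.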

How the results depend on the processing

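The enzyme differences were recomputed with another scaling, filter, pseudocount, gene set, block or covariate, with only the groups compared, or with copies. Of these, 262 kept their sign and side of the threshold, 22 changed sign, 4 newly passed and 2 no longer passed. With single samples left out, 338 kept both, 15 changed sign and 7 no longer passed. All that no longer passed were *Pgam2* between Aged abnormal and Young, the only enzyme difference that had passed before these changes. Each of the others had not passed, so keeping its side means still not passing. Depth is unknown for TPM, so a difference that did not pass is not shown to be absent. The cause of the changes below was not tested. The block was not run for comparisons with Young, since young and aged mice are different animals.

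With TMM-type factors the difference of Aged abnormal against Aged normal turned to -0.025 for *Gpi1*, -0.21 for *Aldoa* and -0.042 for *Pkm*. Against Young the Aged abnormal difference turned to -0.021 for *Hk2*, -0.021 for *Gpi1*, -0.16 for *Gapdh* and -0.071 for *Pkm*, and the Aged normal difference to 0.0038 for *Gpi1*, 0.039 for *Aldoa* and 0.030 for *Eno3*. The enzymes' median was -0.28 and -0.23 in the comparisons of Aged abnormal fibers, and 855 genes were called between the aged groups. Their summed level was 62553.2, 63104.3 and 52557.2 TPM in Young, Aged normal and Aged abnormal fibers, or 65875.0, 65125.5 and 61144.1 TPM when scaled without the mitochondrially-encoded genes. That scaling turned *Aldoa* to -0.048 between the aged groups, *Gapdh* to -0.013 for Aged abnormal against Young, and *Aldoa* to 0.017 and *Eno3* to 0.0084 for Aged normal against Young. With the *Myh4* share as a covariate, *Pfkm* was 0.037 and *Aldoa* -0.064 between the aged groups, *Gapdh* -0.054 for Aged abnormal against Young, and *Aldoa* 0.024 and *Eno3* 0.018 for Aged normal against Young. With copies added *Gapdh* was -0.0045 for Aged abnormal against Young.

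Between the aged groups the replicate block, which pairs same-numbered samples, called 2281 of 14427 genes and 1 enzyme. The fit without it called 1349 and 0. The block changed no other enzyme's call. With the block and the *Myh4* share together 22 genes were called, *Aldoa* was -0.037 and *Tpi1* 0.010. The fit of only the 2 aged groups called 748 genes and that with the *Myh4* share 820. With the filter of 5 TPM, 1 enzyme was called between the aged groups and 2 between Aged abnormal and Young, and 266 genes between Aged normal and Young. With no filter 0 enzymes were called between Aged abnormal and Young.

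Leaving out 1 sample gave 665 to 1456 genes called between the aged groups (665 without Aged abnormal sample 2), 604 to 1676 between Aged abnormal and Young (604 without Young sample 4, 715 without Young sample 1, 742 and 788 without Aged abnormal sample 2 and 4) and 55 to 207 between Aged normal and Young (72, 55 and 59 without Young sample 1, 2 and 3, and 91, 103 and 59 without Aged normal sample 2, 3 and 4). It gave 0 to 1 enzymes called between Aged abnormal and Young. The enzymes' median ranged over -0.063 to 0.0075, -0.092 to -0.025 and -0.11 to -0.020 in the 3 comparisons, in the order just given. Differences near 0 changed sign: *Aldoa* (-0.029 to 0.043, -0.024 to 0.025 and -0.044 to 0.028), *Gapdh* (-0.10 to 0.030 between the aged groups and -0.036 to 0.094 for Aged abnormal against Young), *Tpi1* (-0.10 to 0.014 between the aged groups), *Hk2* (-0.037 to 0.26 and -0.21 to 0.00039 against Young), and *Pgk1* (-0.0069 to 0.054) and *Eno3* (-0.051 to 0.0015) for Aged normal against Young.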
